A study of Mus musculus with 8 samples.

Results

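Photoreceptor fate is set in the mouse retina by a small group of transcription factors, and 7 of them were followed here in retinal messenger RNA at postnatal day 5: Otx2, Crx, Prdm1, Rorb, Nrl, Nr2e3 and Mef2d. The genes were chosen by symbol from the table of read counts per gene, which lists 16109 genes. All 7 were present and all 7 passed the expression filter, which left 15850 genes for testing. The series compared retinas labelled C3 KO (4 libraries, a knockout of the complement gene C3) with retinas labelled WT (4 libraries, wild type), all of strain C57BL/6 and that age. Whole retinas were dissected free of the embryonic hyaloid vessels, so each library mixes all retinal cell types. The number and sex of the animals behind each library, and the construction of the C3 allele, are not given in the sources used here, and p-values therefore measure the spread between these libraries.

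Photoreceptors arise from dividing progenitors, and in the mouse the rods are still being born in the first days after birth. Otx2, a homeodomain factor, commits daughter cells to the photoreceptor and bipolar lineages and switches on its relative Crx and the zinc finger repressor Prdm1, also called Blimp1. Prdm1 holds cells in the photoreceptor fate by repressing bipolar genes. The nuclear receptor Rorb acts with Otx2 upstream of Nrl, the leucine zipper factor that selects rod over cone fate. Nrl in turn switches on Nr2e3, an orphan nuclear receptor that represses cone genes in rods, while Mef2d works beside Crx at genes of maturing photoreceptors.

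The promoter windows of the 3 factors that passed the test, and of Nr2e3, whose fold change was closest to none, are shown because the factors are known to bind each other's regulatory DNA. Each window holds 250 bases before and 50 bases after a RefSeq transcript start on build GRCm38.p6, written 5′ to 3′ on the gene's own strand, and the capitals mark every match on either strand to 5 short motifs. The motifs were TAATCC (bound by Crx and Otx2), AGGTCA (a nuclear receptor half-site used by Rorb), TGCTGA (a half-site of Nrl and other Maf factors), CTA and TAG with any 4 bases between them (Mef2) and GTGAAA (a core of the Prdm1 site). Crx lies at chr7:15879906-15880205, minus strand, Prdm1 at chr10:44458699-44458998, minus strand, Rorb, first of 2 windows, at chr19:19111147-19111446, minus strand, and Nr2e3 at chr9:59950030-59950329, minus strand.
Crx: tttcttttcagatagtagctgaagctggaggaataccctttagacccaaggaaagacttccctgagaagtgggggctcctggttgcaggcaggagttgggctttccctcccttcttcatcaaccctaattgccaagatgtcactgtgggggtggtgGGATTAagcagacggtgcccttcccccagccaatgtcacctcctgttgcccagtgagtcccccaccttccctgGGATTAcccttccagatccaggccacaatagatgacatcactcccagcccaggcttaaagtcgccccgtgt
Prdm1: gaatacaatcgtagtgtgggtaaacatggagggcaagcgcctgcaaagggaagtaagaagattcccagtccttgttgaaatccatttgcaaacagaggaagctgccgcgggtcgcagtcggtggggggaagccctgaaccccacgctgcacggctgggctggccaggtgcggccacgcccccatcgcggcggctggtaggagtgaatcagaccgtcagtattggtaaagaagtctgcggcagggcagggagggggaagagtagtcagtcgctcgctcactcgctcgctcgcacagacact
Rorb: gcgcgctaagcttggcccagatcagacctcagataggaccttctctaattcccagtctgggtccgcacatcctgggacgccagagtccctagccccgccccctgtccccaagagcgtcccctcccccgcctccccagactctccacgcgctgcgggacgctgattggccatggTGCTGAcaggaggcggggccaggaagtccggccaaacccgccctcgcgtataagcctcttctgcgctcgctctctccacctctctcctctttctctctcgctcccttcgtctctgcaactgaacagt
Nr2e3: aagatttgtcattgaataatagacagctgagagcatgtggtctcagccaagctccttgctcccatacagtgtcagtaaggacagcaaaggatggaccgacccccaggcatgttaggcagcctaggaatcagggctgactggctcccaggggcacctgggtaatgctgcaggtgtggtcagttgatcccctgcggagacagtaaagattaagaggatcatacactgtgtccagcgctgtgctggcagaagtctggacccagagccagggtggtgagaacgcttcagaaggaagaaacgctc
The Crx window held 2 copies of GGATTA, the reverse complement of TAATCC, at positions -94 and -21 counted from the transcript start. TAATCC or its complement was found in 7.07% of 32807 promoter windows of this length. The Rorb window held 1 copy of TGCTGA, a motif found in 19.5% of windows. None of the 5 motifs was found in the Prdm1 or the Nr2e3 window. Across the 11 windows of the 7 factors, TAATCC matched only in Crx and in 1 of the 4 windows of Otx2, and neither AGGTCA (16.3% of all windows) nor the Mef2 motif (3.69%) matched in any. GTGAAA, found in 12.9% of windows, matched in Nrl and in the second window of Rorb. Besides Rorb, TGCTGA matched in windows 2 and 3 of Otx2 and in the window of Mef2d. These are matches of letters and were not tested as binding sites.

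Library totals ran from 16503564 to 19608824 counts. C3 itself had 1419 to 1718 reads in the libraries labelled C3 KO, against 33 to 55 reads under the WT label, which goes against the labels. Every direction below is therefore drawn between the labels, C3 KO over WT. The labels also moved with sex-linked transcripts. Xist, made by the inactive X chromosome, stood at 1.48 to 2.65 CPM under the C3 KO label and at 295 to 2441 CPM under the WT label, where CPM is the read count relative to the library's TMM-scaled total. The mean of 4 Y-linked genes was 74.8 to 88.2 CPM under the C3 KO label and 0.448, 5.05, 75.8 and 3.71 CPM under the WT label, in the order of replicates 1 to 4 that is kept for all values below. Sex-linked levels and labels thus overlapped in part: the library labelled WT replicate 3 carried Xist and also Y-linked reads within the range of the C3 KO label.

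All 7 factors were abundant, and 3 of the 7 fell in the libraries labelled C3 KO: Prdm1, Rorb and Crx. No factor rose. The threshold for calling a gene was an adjusted p (Benjamini-Hochberg) of 0.05 in edgeR's quasi-likelihood test. By that rule 5.98% of all genes tested were called lower, 8.33% higher and 14.3% in either direction. Among the 619 genes with a mean at or above that of Prdm1, 11% were called lower and 13.9% higher. The median log2 fold change (C3 KO over WT) of the 7 factors was -0.16, against 0.0044 over all genes tested. Together the 7 factors took 0.571%, 0.634%, 0.531% and 0.576% of the counts under the C3 KO label, against 0.623%, 0.672%, 0.619% and 0.635% under the WT label. In these bulk samples, fewer photoreceptor cells and less RNA per cell cannot be told apart.

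**Figure D1:**
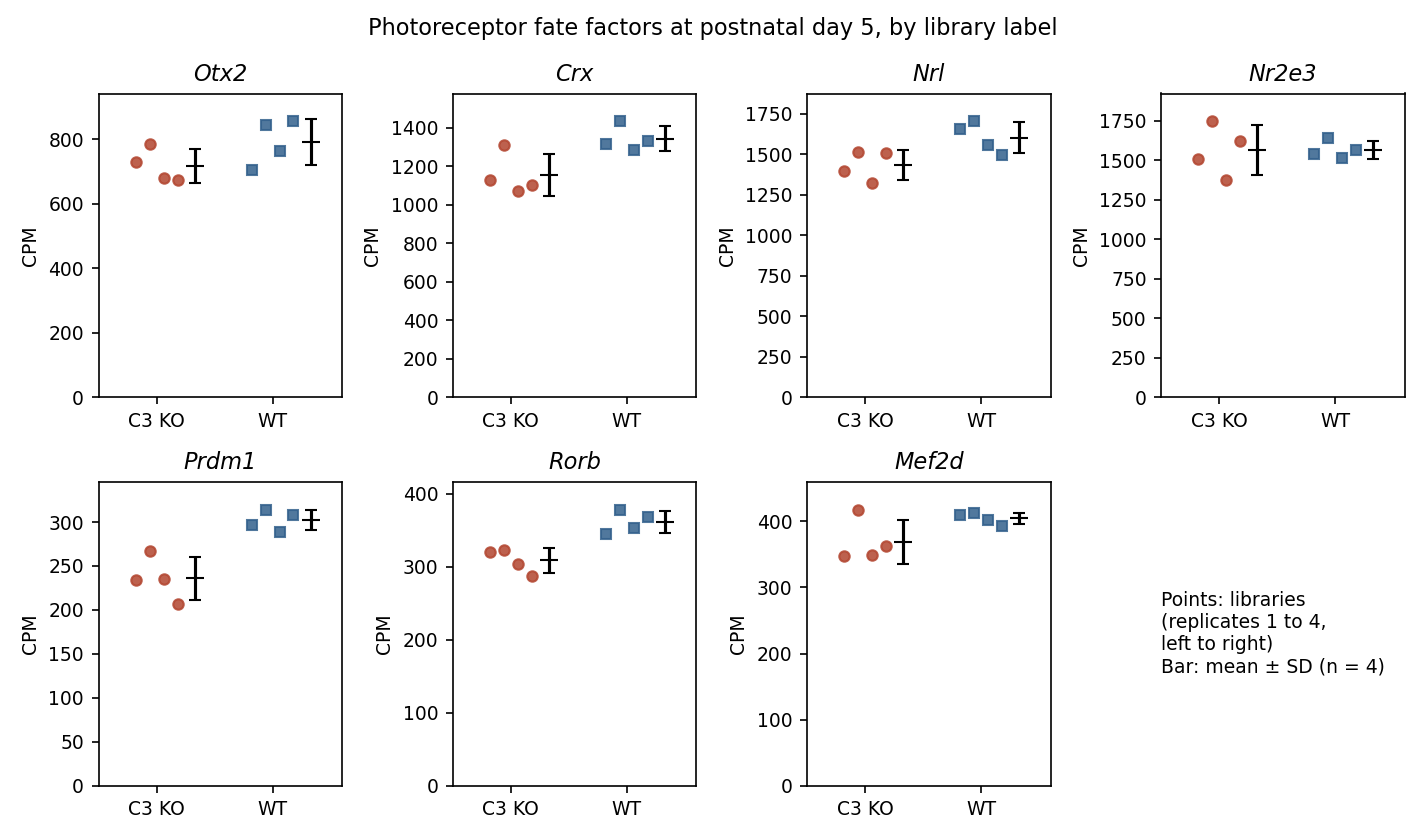
Level of each factor in CPM (vertical axes, starting at 0) in the 4 libraries labelled C3 KO (circles) and the 4 labelled WT (squares), with the mean ± SD (n = 4) as a bar beside each group. Prdm1 and Rorb lay lower in all libraries labelled C3 KO than in any labelled WT, while Nr2e3 had means of 1563 and 1565 CPM under the C3 KO and WT labels.

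Prdm1, the repressor that keeps cells from the bipolar fate, had the largest fold change of the 7. Its levels under the C3 KO label were 234, 267, 235 and 207 CPM, against 297, 314, 289 and 308 CPM under the WT label. The groups did not overlap, a pattern found toward lower values in 7.72% of all genes tested, toward higher values in 9.65% and in either direction in 17.4%. The means were 236 ± 24.5 CPM under the C3 KO label and 302 ± 11.2 CPM under the WT label (SD, n = 4 each), and the log2 fold change was -0.36 ± 0.059 (SE, adjusted p = 0.000405 by edgeR). That corresponds to 0.781 of the WT level, with a 95% interval of 0.717 to 0.850. Prdm1 kept its call in all 20 alternative fits, with log2 fold changes between -0.42 and -0.24.

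Otx2, the factor that stands first in the cascade and activates Prdm1 and Crx, did not pass. It stood at 731, 787, 681 and 674 CPM under the C3 KO label, against 705, 844, 765 and 857 CPM under the WT label. The groups overlapped, with WT replicate 1 below C3 KO replicates 1 and 2, and C3 KO replicate 2 above WT replicate 3 as well. The log2 fold change was -0.14 ± 0.062 (SE, adjusted p = 0.133 by edgeR), with a 95% interval of -0.27 to -0.013. Without the library labelled WT replicate 1 it was -0.20 (adjusted p = 0.0219), and without C3 KO replicate 2 it was -0.19 (adjusted p = 0.0403). Otx2 is also made by the pigment epithelium, of whose genes many were higher under the C3 KO label (values below). The part of that tissue in the Otx2 counts was not tested. In the GENCODE annotation the exons of Otx2 overlap those of Otx2os1 on the other strand and of Gm49154 on the same strand. Neither is among the genes listed with counts. The labels do not say whether counting took strand into account, so reads of Otx2 and Otx2os1 cannot be told apart. Strand would not separate Otx2 from Gm49154.

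Crx, which drives most photoreceptor genes, fell. Its levels were 1131, 1311, 1069.6 and 1102 CPM under the C3 KO label, and 1314, 1434, 1285 and 1334 CPM under the WT label. Only C3 KO replicate 2 reached into the WT range, lying above WT replicate 3. The log2 fold change was -0.22 ± 0.059 (SE, adjusted p = 0.0151 by edgeR), or 0.860 of the WT level. Its promoter window is the one with 2 copies of GGATTA. The call was lost without C3 KO replicate 3 (-0.19, adjusted p = 0.0654) or C3 KO replicate 4 (-0.20, adjusted p = 0.0657).

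Rorb, the orphan receptor upstream of Nrl that is also made in amacrine and horizontal cells, also fell. Under the C3 KO label it stood at 321, 324, 303 and 287 CPM, against 346, 379, 354 and 368 CPM under the WT label. No library labelled C3 KO reached the lowest one labelled WT. The log2 fold change was -0.23 ± 0.049 (SE, adjusted p = 0.00324 by edgeR), or 0.855 of the WT level, and it was called in all 8 fits that left out 1 library.

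Nrl, the rod determinant, lay at the edge of the threshold. It held 1398, 1513, 1323 and 1508 CPM under the C3 KO label, against 1656, 1706, 1559 and 1494 CPM under the WT label. The single overlap came from WT replicate 4, which was lower than 2 of the libraries labelled C3 KO. The log2 fold change was -0.16 ± 0.055 (SE, adjusted p = 0.0551 by edgeR), with a 95% interval of -0.27 to -0.046. It passed in 8 of 20 alternative fits, among them those without C3 KO replicate 2 (adjusted p = 0.0277) or WT replicate 4 (adjusted p = 0.0275).

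Nr2e3, which Nrl activates, had the smallest fold change of the 7. Its levels under the C3 KO label were 1506, 1747, 1375 and 1624 CPM, and under the WT label 1538, 1641, 1514 and 1567 CPM. The libraries labelled C3 KO held both the highest and the lowest value, so the WT range lay inside theirs. The log2 fold change was -0.0017 ± 0.060 (SE, adjusted p = 0.989 by edgeR), with a 95% interval of -0.13 to 0.12. As a fold the interval runs from 0.916 to 1.09 of the WT level. The sign of the fold change turned in 6 of 20 alternative fits, upper quartile scaling among them. The exons of Nr2e3 overlap those of Gm15507 on the same strand, which is not among the genes listed with counts. Gm7616, an antisense gene that overlaps Nr2e3 but shares no exon bases, had 40 to 89 reads under the C3 KO label and 48 to 79 under the WT label.

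Mef2d, a MADS box factor of the Mef2 family, stood at 347, 418, 349 and 363 CPM under the C3 KO label, against 409.7, 412, 403 and 393 CPM under the WT label. C3 KO replicate 2 was the highest of all 8 libraries, and the other libraries labelled C3 KO lay below the WT range. The log2 fold change was -0.13 ± 0.054 (SE, adjusted p = 0.106 by edgeR), and without C3 KO replicate 2 it was -0.20 (adjusted p = 0.00487). An antisense gene whose exons overlap Mef2d, 1700113A16Rik, had 15 to 50 reads under the C3 KO label and 22 to 29 reads under the WT label.

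**Figure D2:**
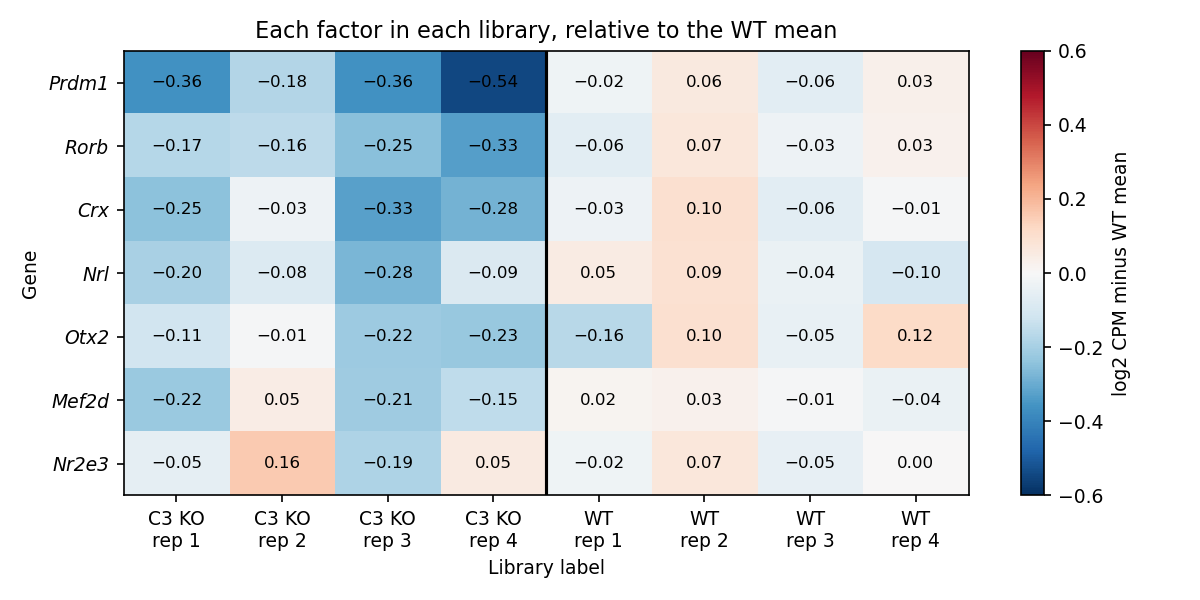
Log2 CPM of each factor (rows) in each library (columns, C3 KO left of WT) minus the mean of the libraries labelled WT, with blue for lower and red for higher values. C3 KO replicate 2 held the highest value among the libraries labelled C3 KO for all 7 factors, and C3 KO replicate 4 held the lowest for Prdm1, at -0.54.

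The libraries labelled C3 KO differed among themselves. Replicate 2 was the highest of the 4 for all 7 factors, and it lay below every library labelled WT for only 2 of them, Prdm1 and Rorb. In replicate 3 all 7 factors lay below every library labelled WT, and the count was 6 in replicate 1 and 5 in replicate 4. The share of all genes tested that did so in each library was not computed, so these counts are descriptions. Replicates 3 and 4 each held the lowest value for 3 factors and replicate 1 for 1. Without replicate 2, 6 of the 7 factors were called lower, Nr2e3 being the exception, while without replicate 3 or replicate 4 only Prdm1 and Rorb were. Calls over all genes changed as well. Lower calls numbered 1022 of 15926 genes without replicate 2, 703 of 15946 without replicate 3 and 544 of 15934 without replicate 4.

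**Figure D3:**
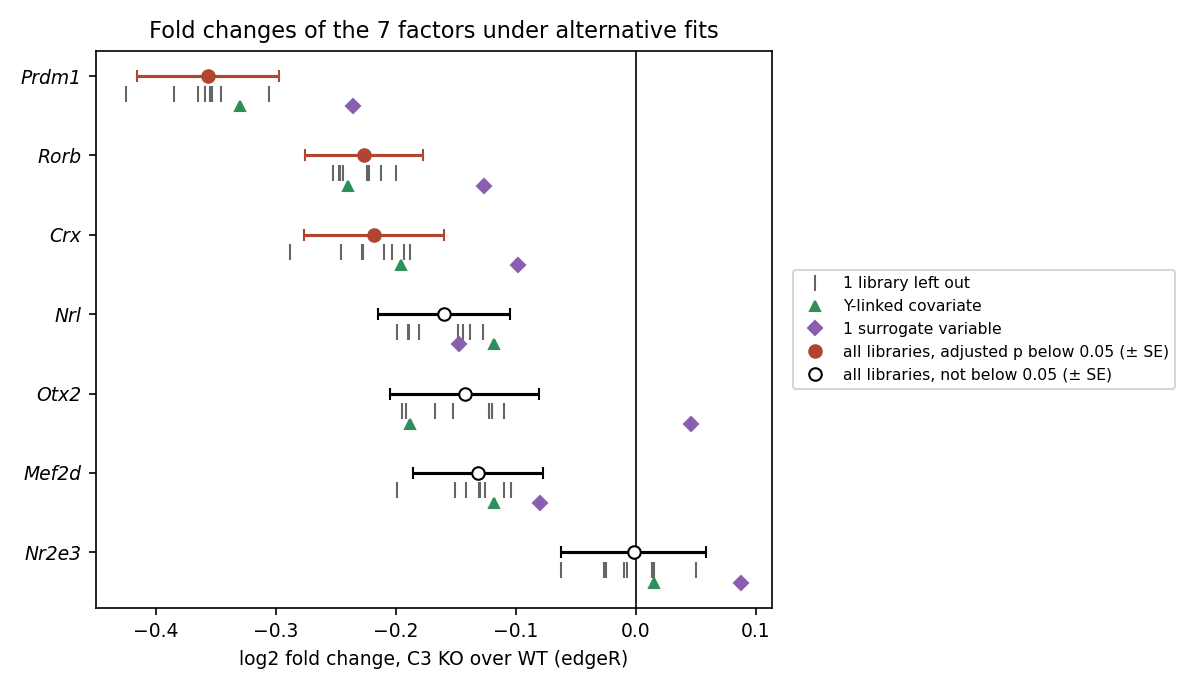
Log2 fold change (C3 KO over WT, horizontal axis) of each factor with its SE from all 8 libraries, with the values from 8 fits that each left out 1 library (grey ticks) and from fits with a covariate (triangles and diamonds). Prdm1, Rorb, Crx, Nrl and Mef2d stayed below 0 in all fits shown, while Nr2e3 lay on both sides of 0 and Otx2 was at 0.046 with a surrogate variable.

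The mean log2 CPM of the Y-linked genes moved with the label (Pearson r = 0.732 over 8 libraries, a description), and the part of sex in the fold changes was not tested beyond fits with a covariate. With that covariate the log2 fold change of Prdm1 was -0.33 (edgeR adjusted p = 0.0491), that of Rorb -0.24 (adjusted p = 0.0843) and that of Crx -0.20 (adjusted p = 0.249). With 1 surrogate variable the values were -0.24 for Prdm1 (adjusted p = 0.0366), -0.13 for Rorb (adjusted p = 0.225) and -0.10 for Crx (adjusted p = 0.466). Prdm1 was thus called under both covariates, and Rorb and Crx under neither. WT replicate 3 was the library under that label with the most Y-linked reads, though WT replicates 2 and 4 also held some. Without it the same 3 factors were called, but that fit cannot separate sex from label. The libraries labelled WT that it kept had Xist at 2195 to 2441 CPM, against 1.48 to 2.65 CPM under the C3 KO label. Their Y-linked means were 0.448 to 5.05 CPM, against 74.8 to 88.2 CPM under the C3 KO label.

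Levels of different genes can be compared only per length, and for that the authors' RPKM values (reads scaled by gene length and library size) were used. The order was the same in all 8 libraries: Nrl, Nr2e3, Crx, Otx2, Mef2d, Prdm1 and Rorb. Nrl averaged 571 ± 38.3 RPKM under the C3 KO label and 643 ± 35.6 RPKM under the WT label (SD, n = 4 each). At the other end, Rorb averaged 27.8 ± 1.64 RPKM under the C3 KO label and 32.7 ± 1.34 RPKM under the WT label (SD, n = 4 each). Nr2e3 and Crx were the only neighbours in that order whose ranges overlapped, at 404 to 520 and 336 to 416 RPKM in the libraries labelled C3 KO and at 452 to 487 and 409 to 454 RPKM in those labelled WT.

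Ratios within a library follow the steps of the cascade and need no scaling between libraries. The RPKM ratio of Prdm1 to Otx2 was 0.198, 0.210, 0.213 and 0.190 under the C3 KO label, against 0.260, 0.230, 0.234 and 0.222 under the WT label. The groups did not overlap, and the mean log2 ratio was -2.30 ± 0.077 under the C3 KO label and -2.08 ± 0.098 under the WT label (SD, n = 4 each). The ratio of Nr2e3 to Nrl was 0.801, 0.858, 0.772 and 0.801 under the C3 KO label, against 0.690, 0.715, 0.722 and 0.779 under the WT label, with an overlap between C3 KO replicate 3 and WT replicate 4. The ratios of Crx to Otx2 and of Nrl to Crx overlapped between the labels, with mean log2 differences (C3 KO minus WT) of -0.080 and 0.061. These ratios are descriptions and were not tested.

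**Figure D4:**
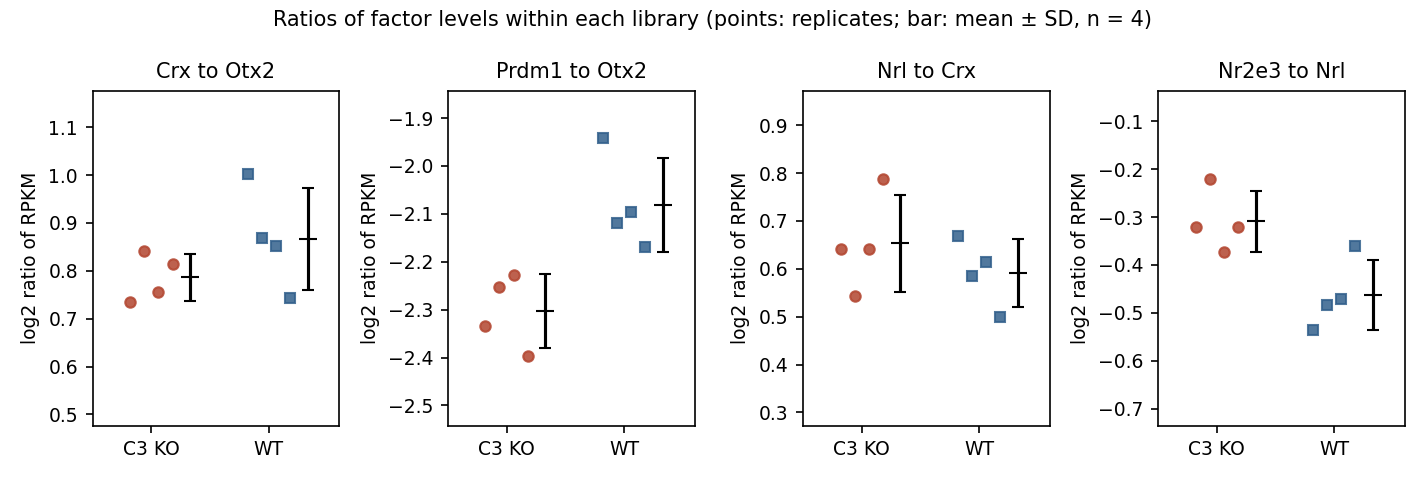
Log2 ratio of RPKM values of 2 factors within each library (vertical axes do not start at 0 and span the same width) for the libraries labelled C3 KO (circles) and WT (squares), with the mean ± SD (n = 4). The Prdm1 to Otx2 ratio lay lower in all libraries labelled C3 KO than in any labelled WT, with a difference of the means of -0.22.

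Genes that work with these factors moved in the same direction more often than the other way. Of 47 partner and fate regulators tested, 18 fell and 1 rose under the C3 KO label, with a median log2 fold change of -0.15. Neurod1, a proneural factor needed by photoreceptors, stood at 619, 727, 619.9 and 579.8 CPM under the C3 KO label, against 835, 868, 772 and 833 CPM under the WT label. The groups did not overlap, and its log2 fold change was -0.38 ± 0.060 (SE, adjusted p = 0.000234 by edgeR). Rax, a homeodomain factor of the early eye field that also activates Otx2, fell by 0.40 on the log2 scale (edgeR adjusted p = 6.52e-05), Neurog2, a proneural factor of progenitors, by 0.68 (adjusted p = 0.000805), and Ezh2, the histone methyltransferase of Polycomb complex PRC2, by 0.34 (adjusted p = 0.000266). The gene that rose was Pax6, the eye field factor kept in amacrine and ganglion cells (log2 fold change 0.27). With the Y-linked covariate 6 genes of this list were called, and with 1 surrogate variable 5.

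Rod genes, most of which Crx, Nrl and Nr2e3 regulate, had 14 lower and none higher among 41 tested, with 39 negative fold changes and a median of -0.18. Kcnv2, a potassium channel subunit of photoreceptors, averaged 205 ± 13.5 CPM under the C3 KO label and 269 ± 24.5 CPM under the WT label (SD, n = 4 each, edgeR adjusted p = 0.000219). Nxnl1, which encodes the rod-derived cone viability factor, fell by 0.46 on the log2 scale (edgeR adjusted p = 0.00629) and Rdh12, a retinol dehydrogenase, by 0.33 (adjusted p = 0.00731). The count of rod genes called ran from 5, without WT replicate 2, to 24, without C3 KO replicate 2, when 1 library was left out. It was 6 without C3 KO replicate 1, C3 KO replicate 3 or WT replicate 1, and 7 and 9 without C3 KO replicate 4 and WT replicate 3. With the Y-linked covariate 1 rod gene was called, and with 1 surrogate variable 2.

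Cone genes, which Nrl and Nr2e3 hold down in rods, had 1 higher and none lower among 14 tested, with a median log2 fold change of 0.048. The gene that rose was Slc24a2, the cone sodium-calcium exchanger, by 0.26 on the log2 scale (edgeR adjusted p = 0.0234). No cone gene was called without C3 KO replicate 1, WT replicate 2 or WT replicate 4, nor with either covariate, while DESeq2 called 2 and limma-voom 3. Arr3, the cone arrestin, had a log2 fold change of 0.31 (adjusted p = 0.0787) and Grk1, the opsin kinase that mouse rods and cones share, one of -0.26 (adjusted p = 0.117). Pde6h, a cone phosphodiesterase subunit, ranged from 109.8 to 128 CPM under the C3 KO label but did not pass (edgeR adjusted p = 0.123). Under the WT label it was uneven, at 56.7, 8.67, 54.1 and 6.34 CPM. Its groups did not overlap, which held toward higher values for 9.65% of all genes tested.

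Bipolar genes, part of which Prdm1 is known to repress, had 6 lower and 2 higher among 22 tested, with a median of -0.17. Vsx1, a homeodomain factor of cone bipolar cells, averaged 2.16 ± 1.01 CPM under the C3 KO label and 5.53 ± 1.16 CPM under the WT label (SD, n = 4 each, edgeR adjusted p = 0.00224). Bhlhe23, a factor of rod bipolar cells, fell by 1.11 on the log2 scale (adjusted p = 0.00827). Isl1, which bipolar, ganglion and amacrine cells share, and Trpm1, a channel that pigment cells also make, were the 2 that rose. The count called, 8, was 4 without C3 KO replicate 1, C3 KO replicate 3 or WT replicate 2 and 5 without C3 KO replicate 4. No bipolar gene was called with 1 surrogate variable, and 1 was with the Y-linked covariate.

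**Figure D5:**
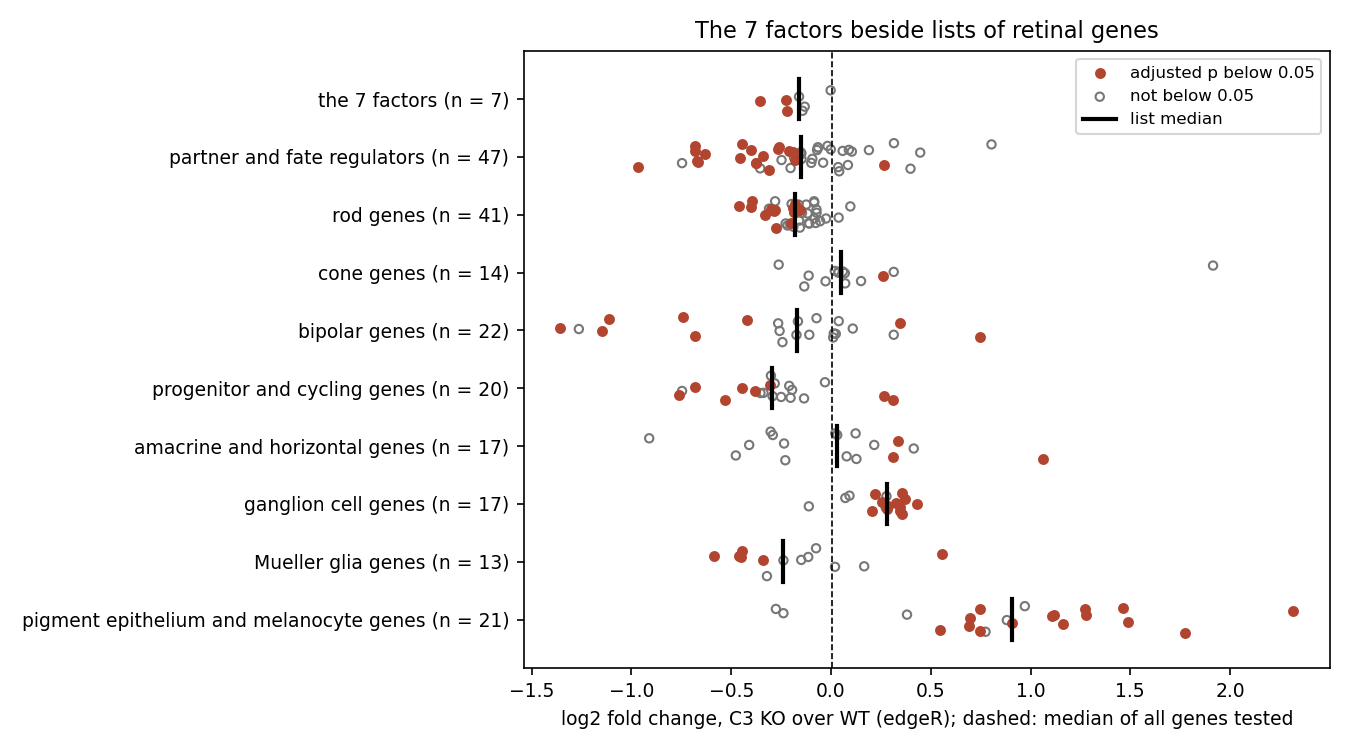
Log2 fold change (C3 KO over WT, horizontal axis) of every tested gene of 10 lists (rows), filled where the adjusted p was below 0.05, with the list median as a black bar and the median of all genes as a dashed line. The medians of the 7 factors, their partners and the rod genes were -0.16, -0.15 and -0.18, against 0.048 for cone genes and 0.28 for ganglion cell genes.

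Genes of other retinal cell types moved with the labels beside the factors, and the part of those cell types in the fold changes above was not tested. Of 17 ganglion cell genes 12 rose and none fell (median 0.28), led by Gap43, a growth cone protein, and Stmn2, a regulator of microtubules. Of the ganglion cell genes 7 were called without C3 KO replicate 3 or WT replicate 2, 6 without C3 KO replicate 4, 5 with the Y-linked covariate and none with 1 surrogate variable. Of 17 amacrine and horizontal cell genes Gad1, Calb2 and Th rose and none fell (median 0.031). That count was 5 without C3 KO replicate 2 or WT replicate 1, 6 by DESeq2, 2 with the Y-linked covariate and 0 with 1 surrogate variable. Progenitor and cycling genes had 6 lower among 20, with Pax6 and the cyclin gene Ccnd1 higher (median -0.30). Mueller glia genes had 5 lower among 13, namely Kcnj10, Sox9, Dkk3, Hes1 and Crym, with Clu higher (median -0.24). With the Y-linked covariate 4 progenitor and 3 Mueller glia genes were called, and with 1 surrogate variable 3 and 1.

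Some genes of pigment epithelium, connective tissue, microglia, vessels, blood and lens also differed between the labels. The amount of each tissue in the libraries was not tested. Pigment epithelium and melanocyte genes had 15 higher and none lower among 21 (median 0.91), and their summed level was 538 to 571 CPM under the C3 KO label and 385 to 413 CPM under the WT label. Ttr, a thyroid hormone carrier made by the epithelium, rose, as did Tyr and Dct, pigment genes that melanocytes share. The visual cycle gene Rpe65, at 1.13 to 3.24 CPM under the C3 KO label and 0.757 to 1.44 CPM under the WT label, did not pass, nor did Lrat (edgeR adjusted p = 0.176) or Best1 (adjusted p = 0.471). This list had 14 to 17 calls when 1 library was left out and 8 with 1 surrogate variable. Of 11 fibroblast and sclera genes Col1a2, Pdgfra, Fap and Fbn1 rose, of 12 microglia genes Csf1r, Fcrls and C1qb, and of 12 endothelial genes Tek. The microglia count was 5 without C3 KO replicate 2 and 8 without WT replicate 1. No endothelial gene was called without C3 KO replicate 3, C3 KO replicate 4 or WT replicate 4. All 5 red blood cell genes fell, with 2 called under the Y-linked covariate and 1 under the surrogate variable. Of 5 lens genes Cryba1 fell, at 0.383 CPM under the C3 KO label and 1.14 CPM under the WT label. No lens gene was called without C3 KO replicate 3 or 4, or without WT replicate 2, 3 or 4. No gene was called among 5 lymphoid and epidermal genes, from tissues where Prdm1 is also used, though 1 was without C3 KO replicate 3. Rod markers were strong in all libraries, with Sag, the rod arrestin, at 1292 to 1532 CPM under the C3 KO label and 1323 to 1661 CPM under the WT label.

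The genes whose levels followed a called factor most closely within the labels were taken as the 3 highest Pearson correlations of log2 CPM, each library measured from its own label's mean, over 8 libraries and 15012 genes averaging at least 1 CPM. For Prdm1 they were Me2 (r = 0.991), 1700007K13Rik (0.987) and Plxnb2 (0.975). For Rorb they were Fancm (0.989), Ddx42 (0.989) and Ext1 (0.988), and for Crx they were Nphp4 (0.992), Smarcal1 (0.985) and Lmln (0.985). Plxnb2, Ext1 and Lmln were themselves called lower, and the other 6 were not called. With 8 libraries and that many genes, high values arise easily, and these are descriptions.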

How the data were processed

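Retinal poly(A) RNA was sequenced from directional libraries, per the labels' protocols. STAR, HTSeq and the builds mm9 and NCBIM37 are named in the submitters' processing notes, with no versions. The authors deposited raw read counts per gene and a second table with the same genes as log2 RPKM, used here for levels between genes, for ratios and as an alternative. Columns were matched to samples by the names in the titles.

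Counts were tested with edgeR 4.0.16 (R 4.3.3): expression filter, TMM scaling and a robust quasi-likelihood fit of C3 KO against WT with no covariate, adjusted by Benjamini-Hochberg over all genes. The SE follows from the fold change and its F statistic, and 95% intervals use the moderated degrees of freedom. Limma 3.58.1, DESeq2 1.42.0 and sva 3.50.0 served as alternatives. The procedure was tested on simulated data. No pair of libraries with the same label agreed within sampling noise (chi-square per degree of freedom at least 3.72).

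The 7 factors and the gene lists were chosen with earlier results of these data known. Further genes were named by a rule: up to 4 of a list with the smallest p at a mean of at least 1 CPM, and the 3 most similar genes of each called factor. A gene that this rule names is not reported here. Some genes stand in more than 1 list. Promoter windows were matched by symbol for all 7 factors in RefSeq on GRCm38.p6, a later build than those of the submitters.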

Additional observations from a re-analysis of the deposited data

How the results depend on the processing

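Prdm1 kept its direction and its call in all 20 alternative fits. The count of all genes called, 2269, was 453 with 1 surrogate variable, 530 with the Y-linked covariate, 1509 and 1502 by limma on log2(RPKM + 1) and log2(RPKM + 0.1), and 1305 to 2543 when 1 library was left out, lowest without C3 KO replicate 4. Of the 7 factors 3 were called, against 1 under either covariate and 2 to 6 when 1 library was left out. Crx lost its call with 1 surrogate variable (-0.10), with the Y-linked covariate (-0.20) and by limma on both RPKM scales (-0.23 each), and was between -0.29 and -0.19 when 1 library was left out. Rorb lost it with 1 surrogate variable (-0.13) and with the Y-linked covariate (-0.24). Nrl passed by DESeq2 (-0.17), limma-voom (-0.16), RLE scaling (-0.16), without an expression filter (-0.17) and with a filter of 1 CPM (-0.16), with -0.20 to -0.13 over the fits that left out 1 library. Otx2 turned to 0.046 with 1 surrogate variable. Leaving out single libraries gave -0.20 to -0.11 for Otx2 and -0.20 to -0.10 for Mef2d. Nr2e3 turned to 0.088 with 1 surrogate variable, 0.015 with the Y-linked covariate and 0.0025 with upper quartile scaling, and leaving out single libraries gave -0.062 to 0.050. In each case the cause was not tested. Same-numbered libraries of the 2 labels did not deviate together (correlations of -0.088 to 0.11). So few correlations cannot decide whether the numbers pair the libraries. With the replicate block Nrl passed (-0.16, edgeR adjusted p = 0.0489), 2400 genes were called, and the calls of the other 6 factors did not change; 22 rod genes and 6 amacrine and horizontal cell genes were called, against 14 and 3 without the block. No scaling moved the median of all genes by over 0.1 on the log2 scale. By limma on either RPKM scale 6 rod genes and 7 ganglion cell genes were called, against 14 and 12.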

Other observations

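Close relatives of the factors were measured in the same libraries. Mef2a, another Mef2 family member, stood at 148 to 152 CPM under the C3 KO label and 143 to 148 CPM under the WT label, with a log2 fold change of 0.041 (edgeR adjusted p = 0.585). Mef2c had a log2 fold change of 0.32 (adjusted p = 0.195), Rora, the relative of Rorb, one of 0.085 (adjusted p = 0.228) and Otx1, the relative of Otx2, one of 0.80 (adjusted p = 0.0932) at a mean of 2.21 CPM under the C3 KO label and 1.25 CPM under the WT label. None of these relatives passed. Whether their fold changes differed from those of Mef2d, Rorb and Otx2 was not tested.

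Thrb and Rxrg, nuclear receptors of cone precursors, had log2 fold changes of 0.036 (edgeR adjusted p = 0.761) and 0.10 (adjusted p = 0.311). Casz1, a zinc finger factor of retinal progenitors, stood at 261 CPM under the C3 KO label and 300.4 CPM under the WT label and just missed the threshold (log2 fold change -0.20, adjusted p = 0.0503). All genes named here were chosen after their values were seen.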
